A study of Homo sapiens with 8 samples.

Results

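The 134 genes for the pore-forming and auxiliary subunits of voltage-gated calcium, voltage-gated sodium and potassium channels were examined in A673 cells, in which FEZF1 was knocked down. They were taken by their symbols: KCN with letters and digits (KCNAB3 left out), SCN with a number and A or B, and CACNA1, CACNA2D, CACNB or CACNG, out of 38256 genes in the table that the authors deposited. The choice was made with earlier results of these data known. A673, an established line from an Ewing sarcoma, expresses the fusion gene EWSR1-FLI1, and FEZF1 is a zinc finger transcription factor of the developing forebrain. A673/TR/shFEZF1 cells express the tetracycline repressor and a short hairpin RNA (shRNA) against FEZF1 that doxycycline switches on. There were 8 libraries of mRNA: a polyclonal population and clones 3, 5 and 6, each grown without doxycycline (control) and with doxycycline at 1 µg/mL for 72 h. All 8 cultures carry the repressor and the hairpin construct. The clones had been picked by the authors for strong loss of FEZF1 protein, each is a single clone, and no library of cells with doxycycline but without the hairpin was analysed here, so an effect of doxycycline itself and one of FEZF1 loss cannot be told apart. The labels do not say that the cultures of 1 origin were grown more than once, so each p-value below covers these 8 cultures only. Where cultures are paired by origin, the test of doxycycline rests on the spread of the differences within the pairs.

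Voltage-gated channels open when the membrane potential changes. The alpha-1 subunits of calcium channels and the alpha subunits of sodium channels form the pore, and the alpha-2/delta, beta and gamma subunits alter how many channels reach the membrane and how they gate. Potassium channels bring the membrane back to rest: KCNA to KCNV genes encode voltage-gated pores or their silent partners, KCNJ inward rectifiers, KCNK tandem-pore leak channels, KCNM, KCNN and KCNT channels opened by calcium or sodium (with the KCNMB beta subunits among them), and KCNE, KCNAB and KCNIP auxiliary subunits. These channels are best known in neurons and muscle, and many of them are also transcribed in tumour cells.

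Library depth ranged from 26719886 to 42422421 assigned reads, of which 89.9% to 91.1% fell in genes with a matched symbol and 0.0702% to 0.0905% in the channel genes. FEZF1 itself was at 96.4, 70.5, 107 and 74.4 CPM (reads scaled to library size after TMM) in the control cultures of the polyclonal population and clones 3, 5 and 6. With doxycycline it was at 60.6, 43.0, 60.8 and 36.4 CPM in the same order. The lowest control exceeded the highest doxycycline culture (p = 0.0286, 2-sided, by exact permutation over cultures, which cannot give less with 4 against 4). That permutation ignores the pairing by origin, and sign flips over the 4 pairs cannot give a p under 0.125. The log2 fold change was -0.81 (SE 0.0726; edgeR's quasi-likelihood test with origin as a replicate block, adjusted p = 0.00594, and 0.290 without the block). FEZF1 overlaps 1 gene annotated on the other strand, and whether the counting used strand is not given in the sources used here. All 8 Ewing sarcoma genes checked (NR0B1, NKX2-2, PRKCB, STEAP1, CD99, JAK1, LIPI and CCND1) were expressed in every library. Of 16 markers of neurons, muscle, heart, blood and epithelium, 10 stayed under 1 TPM (a share of transcripts corrected for length) in every library. MYOD1 and CD3E were at 0. The neuronal genes SYT1, SNAP25 and SLC17A7 were at 22.4 to 38.2, 5.02 to 7.21 and 2.12 to 4.47 TPM. The neuronal genes RBFOX3 and GAD1 stayed under 1 TPM. EPCAM, of epithelium, ranged from 0.0368 to 3.39 TPM, and the heart genes TNNT2 and NPPA reached 1.24 and 1.46 TPM. The summed TPM of the 16 was 36.0 to 43.5 in the controls and 37.6 to 53.6 with doxycycline, and its part in the results was not tested.

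Of the calcium channel genes described below, CACNA2D1 fell and CACNA1I rose with doxycycline, and the 250 bases before the RefSeq start of each are shown for the GGAA core to which ETS factors such as EWSR1-FLI1 bind. Sequences are from RefSeq (GRCh38.p14), 5′ to 3′ on the strand of the gene, with GGAA or its reverse complement TTCC in capitals. CACNA2D1 is on the minus strand (chr7:82443957-82444206) and CACNA1I on the plus strand (chr22:39570503-39570752).
CACNA2D1: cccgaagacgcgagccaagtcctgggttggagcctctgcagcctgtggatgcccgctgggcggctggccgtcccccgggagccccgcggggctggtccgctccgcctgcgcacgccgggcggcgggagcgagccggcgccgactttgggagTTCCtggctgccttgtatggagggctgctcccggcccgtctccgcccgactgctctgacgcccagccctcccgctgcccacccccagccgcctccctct
CACNA1I: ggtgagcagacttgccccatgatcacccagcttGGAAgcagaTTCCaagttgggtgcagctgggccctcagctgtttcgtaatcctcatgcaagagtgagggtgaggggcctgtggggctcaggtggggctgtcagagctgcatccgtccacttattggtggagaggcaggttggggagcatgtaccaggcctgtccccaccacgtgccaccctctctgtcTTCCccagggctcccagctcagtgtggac
The CACNA2D1 window held 1 such match and the CACNA1I window 3, which was also the median over 149 windows of 97 channel genes and over 35116 windows of all genes (both strands searched, overlapping matches counted). At least 1 match was in 92.0% of the channel windows and 92.7% of all windows. A direct repeat, GGAAGGAA or its reverse complement TTCCTTCC, was in 5.37% of the channel windows and 3.06% of all windows, and in neither window above. A match of these letters is a description of the sequence only.

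Most channel genes had few reads. Of the 134 genes, 14 had no read matched to their symbol in any library and 33 had at most 3 matched reads in every library. Of the 14, 10 had a mean of 0 in the authors' table too. KCNG2, KCNH4, KCNJ8 and KCNK10 had an authors' mean above 0 (18.4 for KCNG2), so that their reads were not among those matched and their levels are not known from the sums used here. A mean of at least 1 TPM over the 8 libraries was reached by 25 genes, and at least 10 TPM by 8. The KCNE, KCNAB and KCNIP subunits, 11 genes, made up 46.9% of the summed TPM, voltage-gated potassium pores and silent partners (40 genes) 19.98%, calcium alpha-1 subunits (10 genes) 10.9%, and the 10 sodium alpha subunits 0.413%.

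KCNE3, a single-pass subunit that modifies KCNQ1 and other potassium pores, was the most abundant at 101 ± 25.1 TPM (SD over 8 libraries of both treatments; 68.5 to 136). KCNE4, a relative that inhibits several of these pores, followed at 70.8 ± 13.9 TPM (55.8 to 99.4), and their ranges overlapped. KCNQ1 itself had at most 1 read in any library (mean 0.0023 TPM). Below a gap came KCNS3, a silent partner of other potassium pores that forms no pore of its own, at 23.5 ± 9.18 TPM, and CACNA1H, the T-type calcium pore CaV3.2, at 22.9 ± 7.80 TPM. CACNA2D1, the alpha-2/delta subunit that binds gabapentin, was at 20.8 ± 4.26 TPM. KCNN1, a small-conductance pore opened by calcium, was at 16.7 ± 3.92 TPM, which counts only the 46.2% of its reads implied by the authors' mean that were matched, so its place in the order is uncertain. Next came the T-type pore gene CACNA1G at 14.8 ± 5.62 TPM and KCNG1, another silent partner, at 12.9 ± 1.55 TPM. The ranges of neighbours in this order overlapped from KCNS3 to KCNG1, so the order within it is not settled by these libraries. The plot of levels shows how steeply they fell after KCNE4.

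The most abundant genes of the other families were lower. CACNB3, a cytoplasmic beta subunit, was at 9.16 TPM (5.26 to 13.6), although only 66.1% of the reads implied by the authors' mean for it were matched to the symbol. CACNG4, a transmembrane gamma subunit that also attends AMPA receptors, was at 6.45 TPM (3.91 to 9.39). The inward rectifier KCNJ12 was at 3.27 TPM (1.32 to 5.84), a value that is uncertain because KCNJ18 is nearly identical in sequence. The top sodium pore gene, SCN8A, was at 0.893 TPM (0.371 to 1.28). The tandem-pore gene KCNK18 reached 0.849 TPM (0.308 to 1.503). Among the voltage-gated potassium pores, KCNQ5 was at 9.09 TPM, KCNA2 at 8.43 TPM and KCNH2, the pore of the cardiac rapid delayed rectifier, at 6.95 TPM. These 3 were named after their values were seen.

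With doxycycline, few channel genes changed, and they did so in both directions. With each doxycycline culture compared with the control culture of its own origin, 63 of the 134 genes had enough reads to be tested and 4 passed (6.35%; edgeR's quasi-likelihood test with origin as a replicate block, Benjamini-Hochberg adjusted p under 0.05). Among all 15993 genes tested, 7.63% passed. CACNA1I and KCNN1 rose (3.17%, against 3.73% of all genes), and CACNA2D1 and SCN4B fell (3.17%, against 3.91%). At an unadjusted p under 0.05 there were 16 channel genes (25.4%, against 24.8% of all genes), 6 higher and 10 lower. In these bulk libraries, less RNA per cell and fewer cells that express a gene cannot be told apart. The share of channel genes that passed was therefore near the background. Their median log2 fold change was -0.08 (all genes 0.0042), and the median absolute change was 0.23 (all genes 0.15) with a median standard error of 0.22 (all genes 0.11), at a median control mean of 2.01 CPM against 17.9 CPM. Without the block, 0 of the 63 passed by edgeR and 0 by DESeq2. At an unadjusted p under 0.05 the edgeR fit then had 2 of them, KCNE4 and CACNA2D1 (3.17%, against 7.22% of all genes), and 1 of all 15993 genes passed (0.00625%).

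Calcium channel subunits held 2 of the 4 calls. CACNA2D1 (chromosome 7, 81946444 to 82443956, GRCh38) was at 83.3, 73.7, 66.8 and 89.0 CPM in the control cultures of the polyclonal population and clones 3, 5 and 6. With doxycycline it was at 63.3, 54.3, 42.02 and 53.0 CPM. All 4 doxycycline cultures were below all 4 controls, and CACNA2D1 and KCNE4 were the 2 of the 63 tested channel genes whose groups did not overlap (3.17%, against 4.94% of all genes). The means were 78.2 ± 9.90 and 53.2 ± 8.73 CPM (SD, n = 4 cultures each), a log2 fold change of -0.56 (SE 0.0757, edgeR's quasi-likelihood test, adjusted p = 0.00964, from 1.27e-08 to 0.296 over the alternatives). CACNA2D1 was called in each leave-one-out fit except that without clone 5, where the edgeR adjusted p was 0.0501. It overlaps 1 gene on the other strand.

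The reads of CACNA2D1 were spread over RefSeq transcripts that Salmon had to tell apart by small differences. Reads were assigned to 9 of its 13 transcripts. The predicted transcript XM_005250573.3 was at 47.2, 18.0, 38.4 and 24.1 CPM of assigned reads in the control cultures of the polyclonal population and clones 3, 5 and 6, and at 38.0, 18.5, 22.0 and 11 with doxycycline. XM_005250574.3 was at 12.4, 30.7, 6.77 and 43.99 in the controls and at 9.55, 18.3, 5.94 and 28.4 with doxycycline. The first led in both cultures of the polyclonal population and of clone 5 and the second in both cultures of clone 6, while in clone 3 the second led in the control and they were nearly level with doxycycline.

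**Figure D1:**
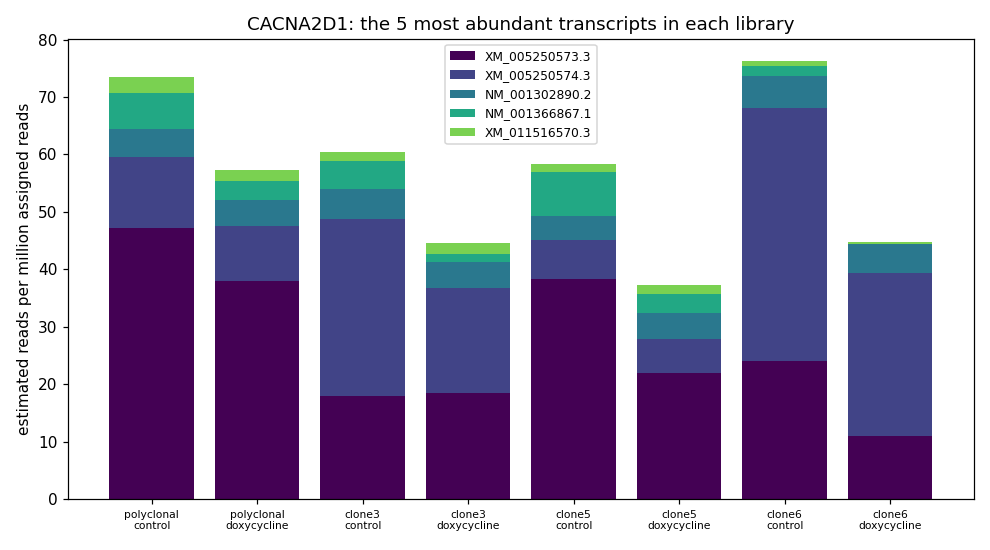
CPM of assigned reads of the 5 most abundant CACNA2D1 transcripts in each of the 8 libraries, stacked. XM_005250573.3 makes up most of the bar in the polyclonal population (47.2 in the control) and XM_005250574.3 in clone 6 (43.99 in the control), and each doxycycline bar is shorter than the control bar of its origin.

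CACNA1I, the pore of the T-type channel CaV3.3 (chromosome 22, 39570753 to 39689735), was at 17.1, 9.36, 11.1 and 9.69 CPM in the controls of the polyclonal population and clones 3, 5 and 6. With doxycycline it was at 29.3, 11.1, 18.6 and 14.6 CPM. It was higher in 4 of 4 pairs although the groups overlapped, because the polyclonal control lay above the doxycycline cultures of clones 3 and 6. The log2 fold change was 0.60 (SE 0.112, edgeR's quasi-likelihood test, adjusted p = 0.0240, from 0.00183 to 0.744 over the alternatives). The call was lost without clone 5, clone 6 or the polyclonal population (edgeR adjusted p = 0.120, 0.0818 and 0.0825). Transcript NM_001003406.2 held 74.2% of its reads.

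The other T-type genes were more abundant and were not called. CACNA1H was at 133, 78.9, 135 and 87.2 CPM in the controls and at 142, 59.9, 115 and 71.7 CPM with doxycycline, in the same order of origins. The log2 fold change was -0.20 (SE 0.0825; edgeR's quasi-likelihood test, adjusted p = 0.182), lower in 3 of 4 pairs and higher in the polyclonal pair. It was -0.31 without the polyclonal population (edgeR adjusted p = 0.0621) and -1.18 with curated transcripts alone (edgeR adjusted p = 0.218). Predicted transcripts were left out of the curated fit, and the most abundant of them held 42.45%, 36.6% and 15.5% of the CACNA1H reads. The value of -1.18 therefore rests on few of its reads. CACNA1H overlaps TPSG1 on the other strand. CACNA1G was at 107, 52.4, 54.9 and 68.4 CPM in the controls and 108, 52.8, 48.9 and 73.6 CPM with doxycycline, a log2 fold change of -0.0069 (SE 0.0632) with a sign that turned in some settings. CACNG4 was at 11.9, 19.8, 13.5 and 13.3 CPM in the controls and at 10.3, 19.0, 11.7 and 8.87 CPM with doxycycline (log2 fold change -0.26, SE 0.109; edgeR's quasi-likelihood test, adjusted p = 0.192). CACNB3 was at 12.3, 10.2, 21.2 and 10.1 CPM in the controls and 16.4, 16.6, 17.4 and 9.25 CPM with doxycycline, higher in 2 pairs and lower in 2. Over the calcium families, 6 of 10 alpha-1, 3 of 4 alpha-2/delta, 4 of 4 beta and 3 of 8 gamma genes were tested.

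Sodium channel genes were low, and 7 of 14 were tested. SCN4B, a beta subunit linked to resurgent sodium current (chromosome 11, 118133377 to 118152888), was at 2.35, 0.347, 2.03 and 1.09 CPM in the controls of the polyclonal population and clones 3, 5 and 6 and at 1.32, 0.0872, 0.531 and 0.631 CPM with doxycycline. It was lower in 4 of 4 pairs, and the groups overlapped. It had at most 93 reads in a library. The log2 fold change was -1.27 (SE 0.302, edgeR's quasi-likelihood test, adjusted p = 0.0462, from 0.0202 to 0.864 over the alternatives that gave one). The call was lost without any 1 of the 4 origins (edgeR adjusted p from 0.0823 to 0.198) and with curated transcripts alone (0.0806). SCN8A, the pore NaV1.6, was at 8.35, 6.11, 9.14 and 5.43 CPM in the controls and at 5.93, 5.93, 5.64 and 2.78 CPM with doxycycline, a log2 fold change of -0.54 (SE 0.172; edgeR's quasi-likelihood test, adjusted p = 0.101). SCN2A, the pore NaV1.2, was at 0.709, 0.378, 2.07 and 0.201 CPM in the controls and at 0.368, 0, 0.432 and 0 CPM with doxycycline. It had at most 57.4 estimated reads in a library, and 53.0% of the reads implied by the authors' mean were matched (log2 fold change -2.15, SE 0.589, edgeR's quasi-likelihood test, adjusted p = 0.0675). It overlaps SCN3A.

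Among the potassium channel genes, KCNN1 was the one that passed. KCNN1 (chromosome 19, 17951293 to 18000085) was at 21.8, 26.5, 24.3 and 17.9 CPM in the controls of the polyclonal population and clones 3, 5 and 6 and at 27.3, 31.4, 34.7 and 20.9 CPM with doxycycline. It was higher in 4 of 4 pairs, and the groups overlapped. The log2 fold change was 0.33 (SE 0.0783, edgeR's quasi-likelihood test, adjusted p = 0.0462, from 0.0253 to 0.806 over the alternatives). The call was lost without any 1 origin (edgeR adjusted p from 0.0854 to 0.222) and with curated transcripts alone (0.0855, at a log2 fold change of 0.32). It was also lost with size factors from DESeq2 (edgeR adjusted p = 0.0521) or when genes needed only 1 read somewhere to be kept (0.0506). All its reads were on NM_002248.4, and only 46.2% of the reads implied by the authors' mean were matched to the symbol. Of the voltage-gated potassium family, 16 of 40 genes were tested, 8 higher and 8 lower in the fit.

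KCNG3, a silent partner of other potassium pores, had 1 direction in all 4 pairs but did not pass. It was at 3.72, 3.31, 4.46 and 2.77 CPM in the controls and at 4.94, 4.42, 7.14 and 4.12 CPM with doxycycline (log2 fold change 0.52, SE 0.146, edgeR's quasi-likelihood test, adjusted p = 0.0736).

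The abundant KCNE genes had fold changes of opposite sign. KCNE3 was at 123, 177, 126 and 207 CPM in the controls of the polyclonal population and clones 3, 5 and 6 and at 103, 169, 102 and 179 CPM with doxycycline (log2 fold change -0.21, SE 0.0566, edgeR's quasi-likelihood test, adjusted p = 0.0652). KCNE4 was at 114, 125, 106 and 116 CPM in the controls and at 132, 142, 186 and 126 CPM with doxycycline (log2 fold change 0.33, SE 0.112; edgeR's quasi-likelihood test, adjusted p = 0.119). The KCNE4 groups did not overlap, though by a small margin, and clone 5 gave the widest pair. Without clone 5 the log2 fold change of KCNE4 was 0.15 (edgeR adjusted p = 0.303). DESeq2 with the block called each of them (adjusted p = 0.0045 and 0.0486). KCNS3 was at 36.8, 13.6, 32.2 and 35.4 CPM in the controls and 47.9, 15.7, 31.0 and 45.6 CPM with doxycycline, higher in 3 of 4 pairs (log2 fold change 0.23, SE 0.0892; edgeR's quasi-likelihood test, adjusted p = 0.166). KCNG1 differed little between treatments, with means of 15.9 ± 1.97 and 18.1 ± 1.69 CPM (SD, n = 4 each; log2 fold change 0.19, SE 0.125; edgeR's quasi-likelihood test, adjusted p = 0.412). KCNJ12 had means of 10.2 ± 5.79 and 9.89 ± 4.20 CPM (SD, n = 4 each) and a log2 fold change of 0.012 (SE 0.120). KCNK18 had means of 0.608 ± 0.297 and 0.426 ± 0.119 CPM (SD, n = 4 each) and a log2 fold change of -0.43 (SE 0.323).

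**Figure D2:**
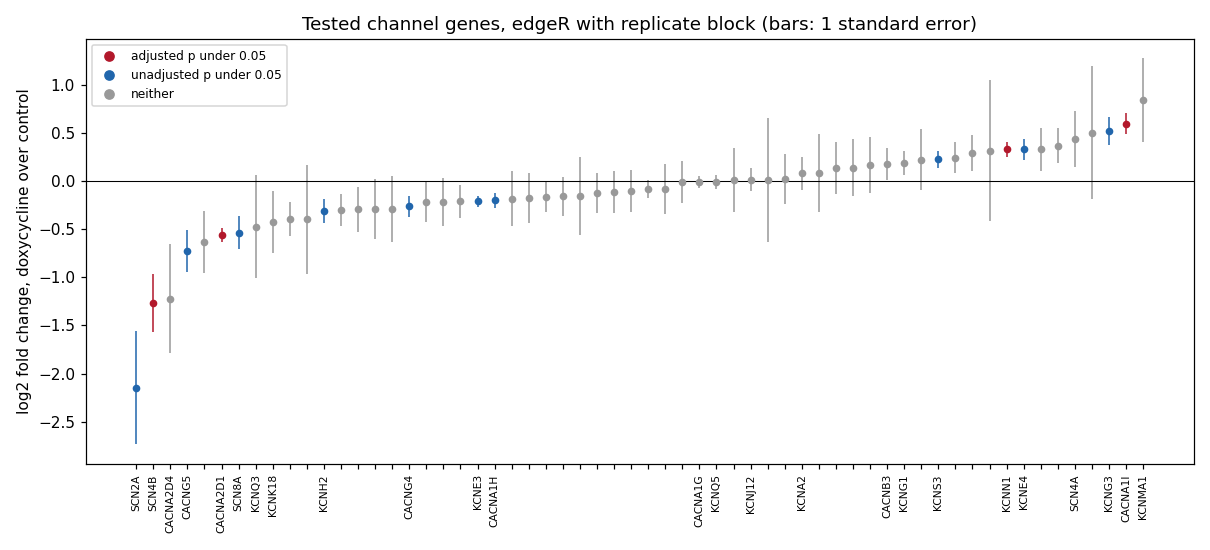
Log2 fold change with doxycycline of the tested channel genes reported here, from lowest to highest, with labels for the genes described in the text and bars of 1 standard error (edgeR with origin as a replicate block). Red points passed the adjusted test and blue points had an unadjusted p under 0.05. The 4 genes that passed lie on both sides of 0, and SCN2A has the lowest value (-2.15) with a wide bar.

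Over all 63 tested genes, 17 had 1 direction in 4 of 4 pairs (27%, against 33.3% of all genes). They were higher in 8 genes (12.7%, against 17.3%) and lower in 9 (14.3%, against 15.9%). In the widest changes that did not pass, the counts were few or the pairs disagreed. KCNMA1, the big-conductance pore opened by calcium and voltage, was at 3.97, 1.64, 1.42 and 0.884 CPM in the controls and 2.58, 2.33, 3.75 and 4.42 CPM with doxycycline, so that it was lower in the polyclonal pair and higher in the clones (log2 fold change 0.84, SE 0.436; edgeR's quasi-likelihood test, adjusted p = 0.282). CACNA2D4 was under 1 CPM in every library (log2 fold change -1.22, SE 0.567; edgeR's quasi-likelihood test, adjusted p = 0.233). Both were named after their values were seen.

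Channel genes varied between origins. A range over the 4 origins of at least 1 in mean log2(CPM + 0.5) was found in 20 of 63 genes (31.7%, against 15.1% of all genes), and the median range was 0.81 against 0.50. Restricted to genes with 10 or more reads in every library, 13 of 43 had such a range (30.2%, against 12.8% of 13595). Tested channel genes were lower than all genes (median control mean 2.01 against 17.9 CPM), and a cut at 10 reads does not match levels. The part of level in the wider ranges was not tested. The origin term of the same edgeR fit, a test added after these values were seen, passed in 30 of 63 genes (47.6%, against 39.4% of all genes). It uses 1 control and 1 doxycycline culture as the replicates of an origin, so it compares these cultures and not clones in general.

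The polyclonal population tended to have the highest level and clone 6 the lowest. Of the 63 genes, 28 were highest in the polyclonal population (44.4%, against 19.7% of all genes) and 2 were lowest there (3.17%, against 18.6%). Clone 6 had the highest level in 3 genes (4.76%, against 30.8%) and the lowest in 32 (50.8%, against 32.2%). Clone 5 was highest in 23 genes (36.5%, against 25.5%) and lowest in 8 (12.7%, against 24.8%), and clone 3 was highest in 9 (14.3%, against 23.9%) and lowest in 21 (33.3%, against 24.3%). Among genes with 10 or more reads in every library, 22 of 43 were highest in the polyclonal population (51.2%, against 17.9%) and 20 were lowest in clone 6 (46.5%, against 27.3%). The polyclonal control was the deepest library and the clone 6 doxycycline culture the shallowest, and the part of depth in this was not tested.

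The genes that varied most between origins came from several families and were named after their values were seen. CACNG5, a gamma subunit, was at 11.4, 0.819, 7.08 and 6.55 CPM in the controls of the polyclonal population and clones 3, 5 and 6 and at 8.04, 0.843, 3.58 and 2.73 CPM with doxycycline. Its lowest level was in clone 3 under each treatment (origin term of edgeR's quasi-likelihood test, adjusted p = 0.0017). With doxycycline its log2 fold change was -0.73 (SE 0.216, edgeR's quasi-likelihood test, adjusted p = 0.0850). The skeletal muscle sodium pore gene SCN4A was at 1.39, 0.441, 0.0726 and 1.89 CPM in the controls and 2.61, 0.349, 0.166 and 2.27 CPM with doxycycline, so that clone 5 was lowest (origin term, edgeR adjusted p = 0.0020). KCNQ3, a voltage-gated potassium pore, was at 0.354, 2.80, 0.327 and 1.85 CPM in the controls and at 0, 1.63, 0.431 and 2.40 CPM with doxycycline. KCNQ3 was thus highest in clones 3 and 6.

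Abundant genes varied between origins too. KCNS3 was at 13.6 and 15.7 CPM in the clone 3 cultures and at 31.0 CPM or more in every other culture (origin term of edgeR's quasi-likelihood test, adjusted p = 7.90e-04). CACNA1G was at 107 and 108 CPM in the polyclonal cultures and at 73.6 CPM or less in every clone culture (origin term, edgeR adjusted p = 5.61e-04). KCNE3 was at 169 CPM or more in clones 3 and 6 and at 126 CPM or less in the other origins (origin term, edgeR adjusted p = 9.02e-04). KCNJ12 was at 4.30 and 4.80 CPM in clone 6 and at 18.1 and 15.1 CPM in clone 3 (origin term, edgeR adjusted p = 0.0016). KCNG1 varied least, with origin means of 16.7 to 17.2 CPM.

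Of 66 genes whose products assemble with, anchor, modify or regulate these channels, or set the ion gradients they use, 49 were tested and 6 passed (12.2%, against the 7.63% of all genes given above), 4 higher and 2 lower. Among them, 20 had an unadjusted p under 0.05 (40.8%, against 24.8% of all genes). Without the block 0 passed by edgeR or DESeq2, with 7 at an unadjusted p under 0.05 by edgeR (14.3%, against 7.22%). DLG2, a scaffold that clusters potassium channels at synapses, was at 40.2, 43.5, 42.7 and 70.6 CPM in the controls of the polyclonal population and clones 3, 5 and 6 and at 31.0, 30.4, 24.3 and 40.0 CPM with doxycycline (log2 fold change -0.63, SE 0.0910, edgeR's quasi-likelihood test, adjusted p = 0.0118). Its groups did not overlap, by a small margin. With curated transcripts alone its log2 fold change was -4.30 (edgeR adjusted p = 0.0567). AMIGO1, an adhesion protein that binds voltage-gated potassium channels, fell by 0.73 on the log2 scale (SE 0.156, edgeR's quasi-likelihood test, adjusted p = 0.0342). With curated transcripts alone the AMIGO1 value was -1.51 (edgeR adjusted p = 0.455). How many of the DLG2 and AMIGO1 reads fell on curated transcripts was not tabulated. The genes that rose were NEDD4L, a ubiquitin ligase that removes sodium channels from the membrane (log2 fold change 0.40, SE 0.0779), CNTNAP2, which gathers KCNA channels beside the node (0.32, SE 0.0678), FGF11, a relative of the factors that bind sodium channel tails (0.37, SE 0.0815), and RCOR1, a partner of the repressor REST (0.25, SE 0.0599). Their edgeR adjusted p-values were 0.0268, 0.0347, 0.0396 and 0.0471. The NEDD4L groups did not overlap either, with 18.9 CPM in the highest control and 20.6 CPM in the lowest doxycycline culture. Over all genes tested, 4.94% had groups that did not overlap. No call among the 6 held in every leave-one-out fit: none of them was called without clone 5 or without clone 6.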

How the data were processed

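RNA was sequenced by the authors from stranded mRNA libraries (paired reads), and Salmon was run on GRCh38 RefSeq transcripts. The deposited files hold estimated counts and TPM per transcript, and the authors' table, made with DESeq2 2.11.40.6, holds a mean of normalized counts per gene (signal) beside their own fold changes and p-values, which were not used. Of 158867 transcripts, 115325 were matched to symbols through RefSeq and summed to 34792 genes. Of the members, 67 had an authors' mean of at least 10, and 10 of these had under 80% of the implied reads matched. TPM was summed for levels only. Sums of expected counts were rounded, filtered with filterByExpr, TMM-scaled and tested with edgeR 4.0.16 (R 4.3.3), with calls at a Benjamini-Hochberg adjusted p under 0.05 over 15993 genes. Per-pair ratios used a pseudocount of 0.5 CPM. Scripts were tested on simulated data. Cultures of 1 origin come from the same cells: the correlation of their deviations from the group means was 0.406 to 0.590, against -0.395 to 0.179 between origins, so origin was a replicate block. The study's methods name no pairing. Members and lists were chosen with earlier results of these data known. Named genes were FEZF1, the called members, up to 8 with an unadjusted p under 0.05 and 1 direction in 4 pairs, the 8 most abundant, the top of each family and the called partners. Alternatives were no block, DESeq2 1.42.0, its size factors, filters at 1 and at 10 counts, curated transcripts only and leaving out each origin. Overlaps are from GENCODE and are stated above for some genes only. Of the other called genes, KCNN1 overlaps 1 gene on its own strand. DLG2 overlaps 14 genes on either strand, CNTNAP2 12, NEDD4L 3, FGF11 3 and RCOR1 2. CACNA1I, SCN4B and AMIGO1 overlap 0. Named genes that were not called may overlap others too. Results for some genes are not reported here.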

Additional observations from a re-analysis of the deposited data

Results flagged for a closer look

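In the groups of 4 cultures of the named genes, 3 of 50 had a culture far from the others for the range of its group, and chance gives about 1 in 20, or 2.5 groups. All 3 were clone 6. SCN8A with doxycycline had 2.78 CPM in clone 6 and 5.64 to 5.93 CPM elsewhere. CACNB3 with doxycycline had 9.25 CPM in clone 6 and 16.4 to 17.4 CPM in the other origins. DLG2 without doxycycline had 70.6 CPM in clone 6 and 40.2 to 43.5 CPM in the other origins.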

How the results depend on the processing

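The replicate block, the filter and single origins moved the counts of calls. Against 4 channel genes called, 0 were called without the replicate block by edgeR and 0 by DESeq2. DESeq2 with the block called 7 of 44 (15.9%, against 14.2% of 13296 genes). A filter at 10 counts in every library gave 8 of 43, and the share of all genes with that filter was not tabulated. Leaving out an origin gave 0 to 2 of 62 to 67 genes tested, with 0 without clone 5, and the shares of all genes were not tabulated. The causes were not tested, although a stricter filter adjusts over fewer genes. Against 6 of 49 partner genes, 0 were called without the block by edgeR and 0 by DESeq2. DESeq2 with the block called 10, beside 14.2% of all genes, and how many partners had an adjusted p there was not tabulated. The filter at 10 counts gave 10 of 44 and curated transcripts alone 1 of 48. Leaving out an origin gave 0 to 3 of 49 to 51. The shares of all genes in these last 3 settings were not tabulated. The log2 fold change of FEZF1 without the block was -0.80 and did not pass (edgeR adjusted p = 0.290). The origin term passed in 30 of 63 genes and in 19 of 57 with curated transcripts. When an origin was left out it passed in 19 to 28 of 62 to 67 (lowest without clone 6). The shares of all genes in these alternatives were not tabulated. The count of genes with 1 direction in 4 pairs was 17 with either pseudocount. Of 247 comparisons for 23 named channel and partner genes, 169 kept direction and side of the threshold, 64 lost a call, 5 gained one and 9 turned sign. The latter were all near 0 in the fit reported: CACNA1G (0.0044 without the block, -0.044 to 0.029 when an origin was left out) and KCNJ12 (-0.048 without the block, -0.0050 and -0.069 with DESeq2 with and without it, -0.00081 with DESeq2 size factors, -0.25 with curated transcripts, -0.063 to 0.11 when an origin was left out). Curated transcripts alone moved NEDD4L to 0.70 (called) and KCNE3 to -0.36 (not called). Restricted to members with at least 80% of reads matched, an alternative chosen after seeing the data, 3 of 56 were called (5.36%). Of all genes, without that restriction, 7.63% were called. Genes with few reads, SCN4B and SCN2A among them, got no adjusted p from DESeq2 with the block.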
